A study of Mus musculus with 10 samples.

Results

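The contractile smooth muscle program was described here as 39 genes of the smooth muscle contractile apparatus and its regulators, taken by gene symbol from a table of 32648 genes measured in renin cells of the mouse kidney. All 39 symbols were found, and all 39 were among the 18825 genes with enough counts to be tested. The list holds 3 actins, 12 other thin filament proteins, 7 myosin heavy and light chains, 5 regulators of myosin phosphorylation or calcium pumping, 3 intermediate filament proteins, 6 dense body and scaffold proteins, and 3 genes grouped as transcription (Myocd, Srf and Mustn1). Renin cells were sorted from the kidney cortex of C57BL/6 mice that carried the Ren1c-YFP reporter, in which renin regulatory sequence drives yellow fluorescent protein, at 8 to 12 weeks of age. The right and the left kidney of 3 mice were taken 72 h after aortic coarctation, a narrowing of the aorta between the origins of the renal arteries, and both kidneys of 2 mice were taken 72 h after a sham operation without narrowing or exposure of the aorta. Each of the 10 RNA-seq libraries came from 1000 DAPI-negative, fluorescent cells of 1 kidney, and all groups, sham included, carried the reporter. The series names the mice as biological replicates. The comparison of right with left kidneys addresses kidneys on opposite sides of the narrowing, and that of coarctation with sham mice addresses the operation.

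Smooth muscle shortens when calcium-bound calmodulin activates myosin light chain kinase, which phosphorylates the regulatory light chain and lets smooth muscle myosin pull on alpha-actin filaments. Myosin phosphatase reverses this step, and the RhoA pathway restrains the phosphatase. The genes of the apparatus are switched on by serum response factor (SRF) with its cofactor myocardin at a DNA element called the CArG box, and renin cells belong to the same arteriolar lineage, in which smooth muscle cells can take up renin synthesis and give it up again.

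CArG boxes are shown because this element links the structural genes to Srf and Myocd, which are themselves members. Those of Myl6, Myl9, Cnn2 and Srf are printed, and those of Actc1 and Ldb3 are not. For Acta2, boxes with 1 letter changed are printed. RefSeq promoter sequence on GRCm38.p6, 250 bases before to 50 after the gene start, was held for 35 of the 39 members. The others, Actg2, Myh11, Myocd and Tagln, were not looked at. The consensus of the CArG box is symmetric, so that a match on 1 strand is a match on the other. A gene was counted when any of its promoter windows held a match. A box was present for 6 of the 35 members (17.1%), Actc1, Myl9, Cnn2, Myl6, Ldb3 and Srf, against 488 of 27025 genes (1.81%). A box with 1 central letter changed was present for 7 of the 35 (20.0%), among them Acta2, against 9.69% of all these genes. Below, capitals mark the box, each sequence reads 5′ to 3′ on the strand of its gene, and a match is a description of the letters only.
Myl6, chr10:128493025-128493084, minus strand: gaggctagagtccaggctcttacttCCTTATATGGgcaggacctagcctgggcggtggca
Myl9, chr2:156775278-156775337, plus strand: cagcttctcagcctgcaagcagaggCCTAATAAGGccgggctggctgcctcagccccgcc
Cnn2, chr10:79988519-79988578, plus strand: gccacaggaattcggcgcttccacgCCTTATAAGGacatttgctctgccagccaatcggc
Srf, chr17:46556190-46556269, minus strand: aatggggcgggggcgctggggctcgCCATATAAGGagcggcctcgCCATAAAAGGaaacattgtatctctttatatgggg
Acta2 (boxes with 1 letter changed), chr19:34255374-34255482, minus strand: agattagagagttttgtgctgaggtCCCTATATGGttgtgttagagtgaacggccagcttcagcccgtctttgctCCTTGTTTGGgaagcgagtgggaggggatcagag
The first base of the box lay 50 bases before the start of Myl6, 161 before that of Myl9 and 56 before that of Cnn2. Srf had boxes at 82 and 62 bases before its start.

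Libraries held 20029817 to 32006229 estimated counts. The sort was for renin cells, and the summed TPM (transcript abundance scaled for gene length and library size) of 3 renin cell markers was 6757 to 15562 in right kidneys of coarctation mice, 32948 to 55760 in their left kidneys, 24198 to 59349 in sham right kidneys and 33584 to 52865 in sham left kidneys. Sham mouse 1 stood apart from the other mice: 13063 and 12804 genes exceeded 1 TPM in its right and left kidney, against 11035 to 11914 in the other 8 libraries, and its TMM scaling factors were 1.24 and 1.17, against 0.842 to 1.08 elsewhere. Its libraries held 20029817 (right) and 21774861 (left) estimated counts, the lowest of all. Markers of other cells were present in every group. In right and left kidneys of coarctation mice and in right and left kidneys of sham mice, 8 proximal tubule markers summed to 2019 to 4551, 1487 to 10211, 1116 to 3757 and 834 to 5288 TPM. In the same order, 6 pericyte markers summed to 558 to 884, 430 to 620, 471 to 573 and 405 to 649 TPM, and 8 leukocyte markers to 295 to 944, 69.3 to 403, 124 to 337 and 126 to 437 TPM. The sums of 7 fibroblast markers (13.9 to 73.9, 15.3 to 22.7, 18.8 to 22.7 and 15.7 to 21.0 TPM) and of 10 striated muscle markers (25.9 to 39.5, 25.6 to 45.7, 35.1 to 37.3 and 24.7 to 37.0 TPM) were low in every library. The sums were 171 to 817, 67.0 to 236, 99.2 to 224 and 223 to 418 TPM for 8 distal tubule and collecting duct markers, 87.1 to 104, 59.8 to 85.5, 74.8 to 92.2 and 81.4 to 96.1 TPM for 8 endothelial markers, and 7.64 to 8.70, 9.95 to 23.0, 12.4 to 26.3 and 15.9 to 16.7 TPM for 5 podocyte markers. In the right and left kidney of sham mouse 1, renin cell markers summed to 24198 and 33584 TPM, against 59349 and 52865 TPM in sham mouse 2. Proximal tubule markers summed to 3757 and 5288 TPM in sham mouse 1, against 1116 and 834 TPM in sham mouse 2. Coarctation mouse 3 had proximal tubule sums of 4551 (right) and 10211 (left) TPM. No marker of any list was at 0 in every library, and the part of other cells in the members' values was not tested. In such bulk samples, fewer cells of a type and less RNA per cell cannot be told apart.

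All 39 genes were above 0 TPM in every library, except Actg2 in the right kidney of sham mouse 2 and Actc1 in the left kidney of coarctation mouse 2. Myl6, the essential light chain of smooth and non-muscle myosin, averaged 13060.4 TPM over the 10 libraries, the fifth highest mean of all 32648 genes. Myl9, the regulatory light chain, followed at rank 18 with 6575 TPM, Tpm2, a tropomyosin, at rank 68 with 2157 TPM, and Acta2, smooth muscle alpha-actin, at rank 95 with 1685 TPM. Tagln (transgelin) averaged 1020.2 TPM, Mustn1 869 TPM, Cald1 (caldesmon) 767 TPM and Myh11, the smooth muscle myosin heavy chain, 127 TPM. At the low end stood Srf with 3.66 TPM, Actg2, the enteric smooth muscle actin, with 2.53 TPM, Synm (synemin) with 2.37 TPM and Actc1, cardiac actin, with 0.191 TPM. The 39 genes together held 1.90% to 4.10% of all TPM in a library. The 2 kidneys of sham mouse 1 had 2.11% (right) and 1.90% (left), those of coarctation mouse 1 had 2.32% (right) and 2.24% (left), and the other 6 libraries had 3.19% to 4.10%.

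**Figure D1:**
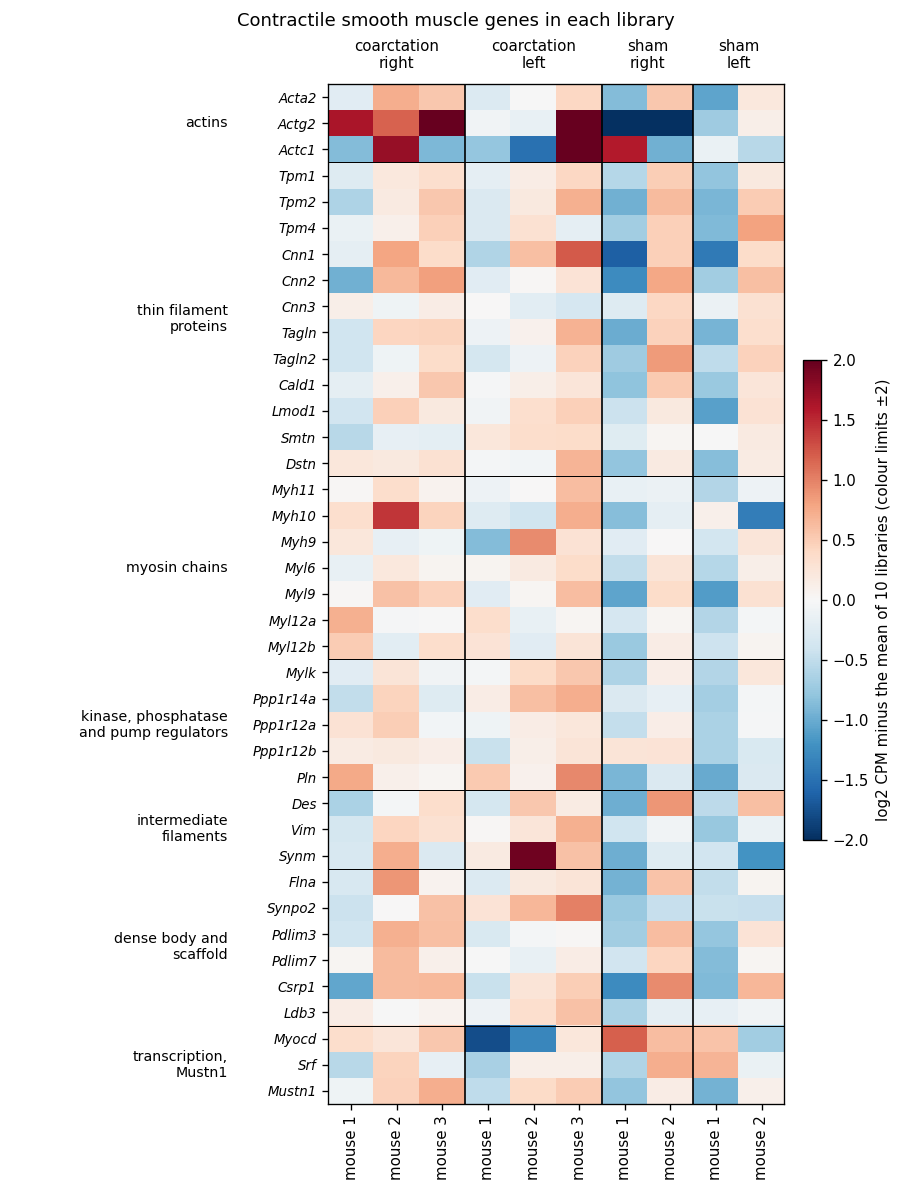
Heat map of the 39 genes (down, by role) in the 10 libraries (across, by group and mouse); colour is log2 CPM (counts scaled to library size) minus the gene's mean over the 10 libraries, cut at ±2. The columns of sham mouse 1 are mostly blue, with 36 of 39 genes under their own mean in each kidney.

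The members differed more between mice than between the kidneys of a mouse. For 32 of the 39 genes the range of the 5 mouse means of log2 CPM was wider than the largest right to left difference in any mouse, against 48% of all tested genes. The exceptions were Actc1, Smtn, Myh10, Myh9, Ppp1r12b, Myocd and Srf. The median member had a range of 1.26 between mouse means and a median difference of 0.29 within mice, and the medians over all genes were 1.53 and 0.62. Levels bear on such spreads, since most members are abundant, and genes of equal level were not compared. On this log2 CPM scale, which includes the TMM factors, sham mouse 1 had the lowest mean for 31 of the 39 members, against 26.1% of all genes. Coarctation mouse 1 had it for 5 members and for 4335 of all 18825 genes. The count depends on the scaling. In TPM, Tagln2 had 57.5 (right) and 56.1 (left) in coarctation mouse 1, against 63.5 and 69.2 in sham mouse 1. Acta2 was still lowest in sham mouse 1 in TPM. In sham mouse 1 the median member lay 0.70 (right) and 0.64 (left) under its own mean on the log2 scale.

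No member passed an adjusted p of 0.05 in any of the 5 comparisons by edgeR's quasi-likelihood test, nor did any other of the 18825 genes (0% called). Between the right and left kidneys of coarctation mice, 1 member had an unadjusted p under 0.05 in that test, against 4.63% of all genes. 19 members were higher and 20 lower in right kidneys, with a median log2 change of -0.0025 beside 0.02 for all genes, of which 51.6% were higher. Without the right kidney of coarctation mouse 1 the median was 0.22, and without the left kidney of coarctation mouse 3 it was 0.30. With both kidneys of coarctation mouse 1, 2 or 3 left out it was -0.01, 0.06 and 0.14. The split moved to 27 higher and 12 lower when libraries were scaled by their totals only, which put the median of all genes at 0.17. DESeq2, limma-voom and limma on log2(TPM + 1) also called no member in this comparison. In sham mice 2 members had an unadjusted p under 0.05 (1.94% of all genes), and 29 members were higher and 10 lower in right kidneys, with a median of 0.09 beside 0.02 for all genes, of which 51.6% were higher. This split moved either way when 1 sham kidney was left out, which breaks a pair and mixes side with mouse. Members higher and lower were 4 and 35 without the right kidney of sham mouse 2 (median -0.49). They were 7 and 32 without the left kidney of sham mouse 1 (median -0.22). Without the right kidney of sham mouse 1 they were 35 and 4, and without the left kidney of sham mouse 2 they were 32 and 7. With a whole mouse left out the split did not turn round. It was 29 and 10 without sham mouse 1 (median 0.11) and 20 and 19 without sham mouse 2 (median 0.05). The difference of the 2 right to left changes, coarctation minus sham, had 1 member under 0.05 (3.05% of all genes), 16 members above 0 and 23 below, and a median of -0.13 beside 0.02 for all genes, of which 50.8% were above 0. With library totals only the split was 20 and 19, and without the right kidney of sham mouse 2, which breaks a pair, it was 29 and 10 (median 0.56). With a whole mouse left out it was 12 and 27 without sham mouse 1 (median -0.18) and 21 and 18 without sham mouse 2 (median 0.01).

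Shared direction within mice was counted next. In coarctation mice 5 members were higher in the right kidney of all 3 mice on the log2 CPM scale (Acta2, Cnn3, Myl12b, Myocd and Mustn1), where 14.5% of all genes were. 6 were lower in all 3 (Tpm2, Smtn, Mylk, Ppp1r14a, Synm and Synpo2), where 13.5% of all genes were. In TPM, which carries no TMM factor, coarctation mouse 2 went the other way for Tpm2, Mylk and Ppp1r14a. Its right and left kidneys had 2553 and 2318 TPM of Tpm2, 126 and 123 of Mylk, and 428 and 425 of Ppp1r14a. The other members named here kept their direction in TPM. In sham mice 14 were higher in both (24.5% of all genes) and 4 lower in both (24.3%). On the same scale, kidney groups did not overlap for 1 member that was higher in the right kidneys of coarctation mice, Myocd (6.11% of all genes), and for 1 that was lower, Smtn (5.39%). In sham mice 2 members were higher without overlap (Myocd and Ppp1r12b, 9.74% of all genes) and 2 lower (Actg2 and Ldb3, 10.5%). No member had 1 direction in every coarctation mouse and the opposite in both sham mice, as 6.45% of all genes did.

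Taking the mouse as a block, which sets each right kidney against the left of the same animal, edgeR called 5 genes in coarctation mice (0.0266%), none of them a member. Unadjusted p was then under 0.05 for 6 of the 39 members and for 5.93% of all genes. Acta2 and Myocd were higher in right kidneys, and Smtn, Mylk, Ppp1r14a and Synpo2 were lower. The smallest adjusted p of a member in that fit was 0.768, for Smtn and for Myocd. In sham mice and for the difference of changes, 0 genes were called with the block. Unadjusted p was under 0.05 for 2 members in sham mice, Ppp1r12b (higher in right kidneys) and Actg2 (lower), and for 3.01% of all genes. For the difference it was under 0.05 for 1 member, Actg2, and for 4.15% of all genes.

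**Figure D2:**
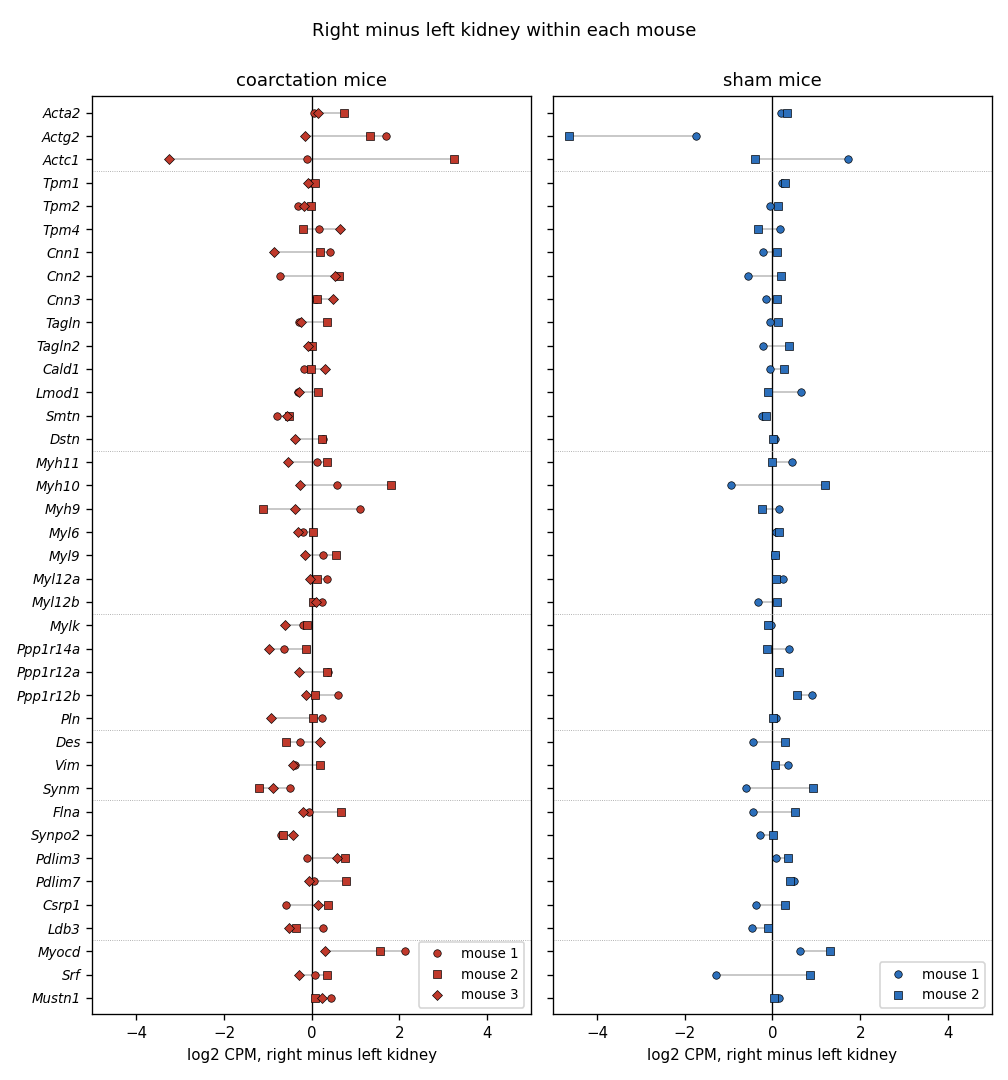
Right minus left difference of log2 CPM for each of the 39 genes, with coarctation mice (left panel, 3 symbols) and sham mice (right panel, 2 symbols); grey lines span the mice. Most symbols sit close to 0. With the counts as deposited, Smtn and Mylk lie to the left of 0 in all 5 mice. Acta2, Mustn1 and Myocd lie to the right of 0 in all 5. The share of all genes with 1 direction in all 5 mice was not counted.

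Among the actins, Acta2 (chromosome 19, 34241090 to 34255590, minus strand, GENCODE vM21 on GRCm38) had 1163, 2915 and 2326 TPM in right kidneys of coarctation mice 1, 2 and 3, against 1047, 1571 and 1802 TPM in their left kidneys. In sham mice 1 and 2 it had 1018 and 2312 TPM in right kidneys, against 843 and 1851 TPM in left kidneys. The right kidney was the higher of the pair in all 5 mice, but values overlapped between all groups, with the lowest values in mouse 1 of either operation. Means were 2135 ± 892 TPM in right and 1473 ± 387 TPM in left kidneys of coarctation mice (SD, n = 3 each). The log2 change was 0.34 ± 0.41 (SE, adjusted p = 1.0 by edgeR) in coarctation mice, and 0.31 ± 0.13 with mouse as a block (adjusted p = 0.839 by edgeR). In sham mice it was 0.29 ± 0.50, and the difference between these changes was 0.05 ± 0.65. Acta2 shares none of its 31-base words with Actg2, Actc1 or the skeletal actin Acta1, and 1.2% with the cytoplasmic actin Actg1, so that reads of these genes can be told apart at most positions.

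Actg2 (chromosome 6, 83512905 to 83536265, minus strand) was scarce. It had 129, 134 and 237 estimated counts in right kidneys of coarctation mice 1, 2 and 3, 32.4, 42.0 and 243 in their left kidneys, 5.57 and 0 in right kidneys of sham mice 1 and 2, and 25.2 and 52.3 in sham left kidneys. All 3 right kidneys of coarctation mice were above both sham right kidneys, and the left kidneys overlapped. It had the smallest p of any member between coarctation and sham right kidneys (log2 change 5.64 ± 1.53 SE, adjusted p = 0.995 by edgeR). DESeq2 gave an adjusted p of 0.000959 and edgeR without a filter on low counts 0.0128, and over all alternatives the adjusted p ranged to 1. The fitted change was 5.69 by DESeq2 and 5.72 by edgeR without that filter. Actg2 rests there on few counts, with 1 sham right library at 0 and the other at 5.57, so this change is no precise measure of a fold. It also led the members in sham right minus left (-3.52 ± 1.46) and in the difference of changes (3.98 ± 1.75, adjusted p = 1.0 by edgeR). Actc1 had 0 to 0.648 TPM, with no order between groups.

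Of the 12 other thin filament proteins, 4 were higher and 8 lower in right than in left kidneys of coarctation mice, but Tpm1, Tpm2, Tagln, Tagln2, Lmod1 and Dstn were higher when libraries were scaled by their totals only. The median log2 change was -0.04, and 1 gene had an unadjusted p under 0.05 by edgeR. That gene was Smtn, smoothelin, an actin-binding protein of contractile smooth muscle (chromosome 11, 3517523 to 3540612, minus strand). It had 23.0, 39.3 and 34.7 TPM in right kidneys of coarctation mice 1, 2 and 3, against 37.1, 50.3 and 43.6 TPM in their left kidneys. In sham mice 1 and 2, right kidneys had 38.9 and 40.9 TPM, against 43.4 and 45.3 TPM in left kidneys. As deposited, the right kidney was the lower in all 5 mice, by 0.79, 0.51 and 0.56 in coarctation mice and 0.24 and 0.14 in sham mice on the log2 CPM scale. The change was -0.61 ± 0.27 in coarctation mice (adjusted p = 1.0 by edgeR) and -0.19 ± 0.33 in sham mice, and the difference of changes was -0.42 ± 0.43.

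Tagln had 634, 1456 and 1322 TPM in right kidneys of coarctation mice, against 725, 1024 and 1341 TPM in their left kidneys, and 570.1 and 1338 TPM in sham right kidneys, against 559 and 1233 TPM in sham left kidneys. Cnn1, calponin, which inhibits the myosin ATPase, had 36.3, 92.4 and 62.5 TPM in right kidneys of coarctation mice, against 25.3, 72.9 and 96.7 TPM in left ones. Cnn1 in sham mice had 18.0 and 66.8 TPM in right kidneys, against 19.9 and 62.6 TPM in left kidneys. Both genes were lowest in sham mouse 1 and overlapped between right and left kidneys. Lmod1, leiomodin, which starts actin filaments, had 17.1, 40.1 and 29.8 TPM in right kidneys of coarctation mice, against 19.9, 32.6 and 31.03 TPM in left ones, and 22.4 and 29.7 TPM in sham right kidneys, against 13.5 and 32.0 TPM in sham left kidneys. Its log2 changes were -0.13 ± 0.37 in coarctation and 0.15 ± 0.46 in sham mice. The tropomyosins, which lie along the actin filament, did not separate the kidneys either: Tpm1 changed by -0.03 ± 0.35, Tpm2 by -0.15 ± 0.47 and Tpm4 by 0.20 ± 0.42 in coarctation mice. The remaining log2 changes there were 0.32 ± 0.54 for Cnn2, 0.24 ± 0.27 for Cnn3, -0.05 ± 0.42 for Tagln2, 0.07 ± 0.36 for Cald1 and -0.0025 ± 0.34 for Dstn, destrin, which takes actin filaments apart.

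Of the 7 myosin chains, 4 were higher and 3 lower in right kidneys of coarctation mice, with a median log2 change of 0.13, and Myh11 and Myl6 turned higher when libraries were scaled by their totals only. Myh11 (chromosome 16, 14194535 to 14291372, minus strand) had 109.9, 180.0 and 133 TPM in right kidneys of coarctation mice, against 94.2, 126 and 166 TPM in their left kidneys, and 133 and 118 TPM in sham right kidneys, against 92.6 and 119 TPM in sham left kidneys. Its log2 change was -0.05 ± 0.27 in coarctation mice and 0.19 ± 0.33 in sham mice. The left kidney was the higher in coarctation mouse 3, by 0.55 on the log2 CPM scale, and right and left kidneys of coarctation mice overlapped. Myl9 had 5396, 10423 and 8644 TPM in right kidneys of coarctation mice, against 4250.4, 6397 and 8189 TPM in left ones. In sham mice it had 3494 and 8068 TPM in right kidneys, against 3151 and 7735 TPM in left kidneys. The kidneys of sham mouse 1 were the lowest of the 10, and the right to left change was 0.19 ± 0.41 in coarctation mice. Myl12a and Myl12b, regulatory light chains found in most cells, overlap on chromosome 17 and share 20.1% and 22.7% of their 31-base words, so that the division of reads between them is uncertain. They changed by 0.17 ± 0.29 and 0.13 ± 0.31 in coarctation mice. The non-muscle heavy chains Myh10 and Myh9 changed by 0.71 ± 0.49 and -0.31 ± 0.44, and Myl6 by -0.16 ± 0.27.

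**Figure D3:**
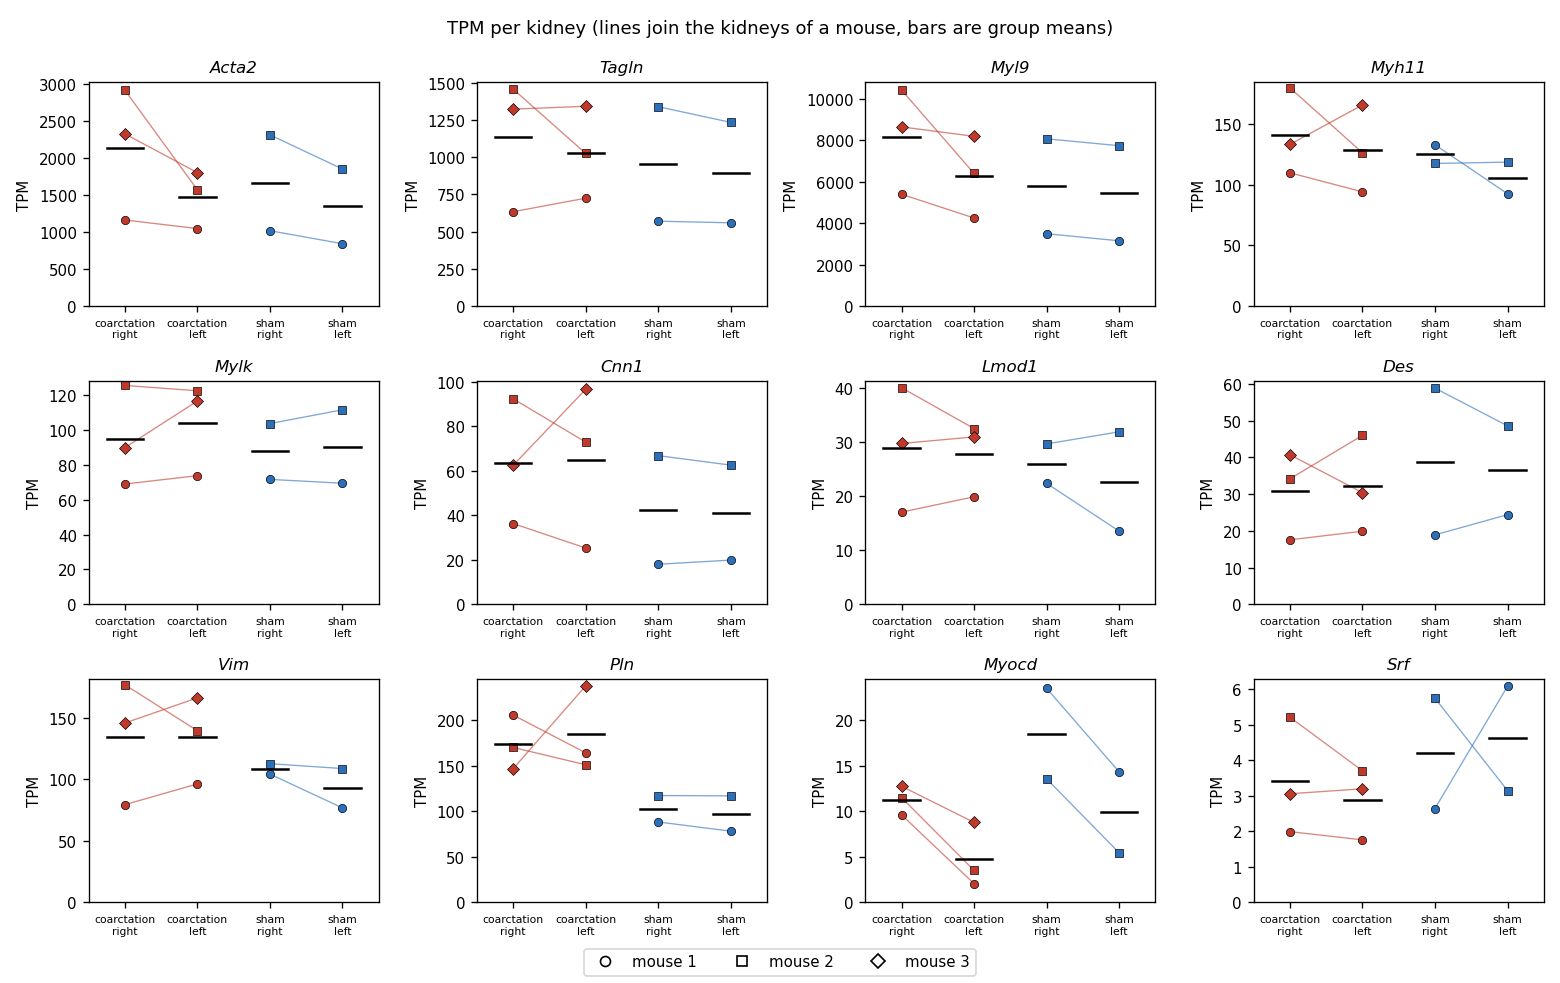
TPM of 12 members in each kidney, with coarctation mice in red and sham mice in blue; lines join the kidneys of a mouse, and black bars are group means. Acta2 was higher in the right kidney of every mouse, and all 6 kidneys of coarctation mice exceeded all 4 sham kidneys for Pln, the lowest at 147 TPM and the highest sham kidney at 117 TPM.

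Of the 5 regulators of phosphorylation and calcium, Mylk, myosin light chain kinase, had 69.1, 126 and 90.0 TPM in right kidneys of coarctation mice, against 73.9, 123 and 117 TPM in their left kidneys, and 71.7 and 104 TPM in sham right kidneys, against 69.5 and 112 TPM in sham left kidneys. Right and left kidneys overlapped within each operation. Its log2 change was -0.31 ± 0.30 in coarctation mice, or -0.30 ± 0.13 with mouse as a block (adjusted p = 0.839 by edgeR). Ppp1r14a encodes CPI-17, an inhibitor of myosin phosphatase, and had 172, 428 and 236 TPM in right kidneys of coarctation mice, against 249.7, 425 and 397 TPM in left ones. In sham mice it had 269.9 and 253 TPM in right kidneys, against 195 and 278 TPM in left kidneys. Right kidneys of coarctation mice 1 and 3 were lower than the left. In mouse 2 the right kidney was lower by 0.14 on the log2 CPM scale but slightly higher in TPM. The fitted change was -0.55 ± 0.32 (adjusted p = 1.0 by edgeR). The difference from the sham change of 0.09 ± 0.38 was -0.64 ± 0.50. Ppp1r12b, a targeting subunit of myosin phosphatase, had 13.3, 17.6 and 15.2 TPM in right kidneys of coarctation mice, against 8.17, 14.9 and 14.1 TPM in left ones, and 19.5 and 16.8 TPM in sham right kidneys, against 9.82 and 11.4 TPM in sham left kidneys. Both sham right kidneys were above both sham left kidneys (0.72 ± 0.33, adjusted p = 1.0 by edgeR), and the change in coarctation mice was 0.16 ± 0.27. The other targeting subunit, Ppp1r12a, changed by 0.16 ± 0.28 in coarctation mice.

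Pln, phospholamban, which holds back the calcium pump of the sarcoplasmic reticulum (chromosome 10, 53337667 to 53345987, plus strand), had 206, 170.2 and 147 TPM in right kidneys of coarctation mice and 164, 151 and 238 TPM in their left kidneys. In sham mice it had 88.3 and 117 TPM in right kidneys and 78.2 and 117 TPM in left kidneys. Means were 174 ± 29.7 TPM in right kidneys of coarctation mice and 103 ± 20.5 TPM in those of sham mice (SD, n = 3 and 2). All 6 kidneys of coarctation mice exceeded all 4 of sham mice, and right and left kidneys overlapped within each operation. The coarctation minus sham change was 1.18 ± 0.38 in left kidneys (adjusted p = 0.912 by edgeR) and 0.90 ± 0.38 in right kidneys (adjusted p = 0.995 by edgeR). Without sham mouse 1 it was 0.86 and 0.62.

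All 3 intermediate filament proteins had fitted changes below 0 in right minus left of coarctation mice (median -0.21), also when libraries were scaled by their totals only, and none passed. Des, desmin, had 17.5, 34.2 and 40.7 TPM in right kidneys of coarctation mice, against 19.9, 46.0 and 30.4 TPM in their left kidneys, and 18.9 and 58.9 TPM in sham right kidneys, against 24.4 and 48.6 TPM in sham left kidneys. Vim, vimentin, had 79.3, 177 and 146 TPM in right kidneys of coarctation mice, against 96.2, 139 and 166 TPM in left ones, and 104 and 113 TPM in sham right kidneys, against 76.6 and 109 TPM in sham left kidneys. Neither gene had the same direction in all 3 coarctation mice, and right and left kidneys overlapped within each operation for both genes. Synm, an intermediate filament protein that binds desmin and vimentin, had 1.34, 3.62 and 1.60 TPM in right kidneys of coarctation mice, against 1.78, 7.54 and 2.52 TPM in left ones, and 1.15 and 1.63 TPM in sham right kidneys, against 1.65 and 0.852 TPM in sham left kidneys. The right kidney was the lower in each coarctation mouse (-0.99 ± 0.58, adjusted p = 1.0 by edgeR), and sham mice differed in direction.

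Of the 6 dense body and scaffold genes, 4 were higher and 2 lower in right kidneys of coarctation mice. Synpo2, myopodin, an actin bundler of the Z-disc and dense body, had 6.73, 11.8 and 15.9 TPM in right kidneys of coarctation mice, against 10.3, 16.7 and 18.3 TPM in their left kidneys, and 7.41 and 7.72 TPM in sham right kidneys, against 8.56 and 7.71 TPM in sham left kidneys. Right kidneys were lower in the 3 coarctation mice by 0.70, 0.65 and 0.43 on the log2 CPM scale, a direction that coarctation mouse 2 did not keep when counts were recomputed with the library's own transcript length. The sham kidneys lay within a narrow band. The fitted change was -0.57 ± 0.34 in coarctation mice, or -0.59 ± 0.23 with mouse as a block (adjusted p = 0.822 by edgeR), and -0.14 ± 0.41 in sham mice. The others changed by 0.48 ± 0.40 (Pdlim3), 0.28 ± 0.33 (Pdlim7), 0.21 ± 0.40 (Flna, filamin A, which crosslinks actin), 0.11 ± 0.58 (Csrp1) and -0.23 ± 0.30 (Ldb3).

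Myocd, myocardin, the SRF cofactor that switches on the contractile genes (chromosome 11, 65176561 to 65269989, minus strand), had the largest right to left change of the members in coarctation mice. It had 9.61, 11.5 and 12.7 TPM in right kidneys of coarctation mice, against 2.05, 3.51 and 8.76 TPM in their left kidneys. In sham mice 1 and 2 it had 23.5 and 13.5 TPM in right kidneys, against 14.3 and 5.43 TPM in left kidneys. As deposited, the right kidney was the higher in all 5 mice. Sham mouse 1, where most structural genes were at their lowest on the log2 CPM scale, had the highest Myocd values. The change was 1.07 ± 0.54 in coarctation mice (adjusted p = 1.0 by edgeR), 0.87 ± 0.66 in sham mice, and 0.20 ± 0.85 for the difference between these. Srf had 1.99, 5.22 and 3.06 TPM in right kidneys of coarctation mice, against 1.76, 3.71 and 3.20 TPM in left ones, and 2.64 and 5.75 TPM in sham right kidneys, against 6.09 and 3.15 TPM in sham left kidneys. Its kidneys showed no shared direction, with changes of 0.06 ± 0.51 in coarctation and -0.12 ± 0.62 in sham mice. Mustn1, a small muscle protein, changed by 0.22 ± 0.38 in coarctation mice.

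The deposited average transcript length, which weights a gene's isoforms by their abundance in a library, bears on Myocd. It was 916, 942 and 1347 bases in right kidneys of coarctation mice, against 3927, 2316 and 1170 bases in their left kidneys, and 351 and 736 bases in sham right kidneys, against 1120 and 1929 bases in sham left kidneys. The shortest length stood beside the highest TPM and the longest beside the lowest. The deposited counts follow the TPM of a gene times 1 length for all libraries, so a library with short assigned isoforms receives more of them for the same reads. Counts were therefore recomputed, an alternative chosen after seeing the data, as TPM times the library's own length, scaled to the library total. The recomputed CPM carry no TMM factor, and the edgeR fits do. Myocd then had 12.7, 14.0 and 23.0 CPM in right kidneys of coarctation mice, against 11.4, 10.7 and 13.7 in left ones, and 11.6 and 12.5 in sham right kidneys, against 22.9 and 13.4 in sham left kidneys. The right kidney was still the higher in the 3 coarctation mice but the lower in both sham mice. The right kidney of sham mouse 1, the highest in TPM, was then among the lowest at 11.6 CPM, while its left kidney was high at 22.9 CPM. The edgeR log2 change was 0.44 ± 0.40 in coarctation mice and -0.57 ± 0.50 in sham mice. Synpo2 then had 40.1, 66.9 and 54.3 CPM in right kidneys of coarctation mice, against 56.6, 42.2 and 102 CPM in left ones, so that the right kidney was the higher in mouse 2, and its change was -0.38 ± 0.37. Smtn had 40.6, 74.7 and 73.05 CPM in right kidneys of coarctation mice, against 65.0, 90.9 and 79.0 CPM in left ones, which overlapped, and its change was -0.36 ± 0.29, against -0.61 as deposited. In sham mouse 2 its right kidney, at 76.1 CPM, was no longer below the left, at 75.9 CPM. With these counts 0 members, Smtn included, had an unadjusted p under 0.05 by edgeR in coarctation right minus left, while 825 of 18695 genes did, and 0 genes were called.

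Myh10, non-muscle myosin heavy chain IIB, showed the same dependence. Its length was 1227, 476 and 932 bases in right kidneys of coarctation mice, against 2496, 2490 and 1549 bases in left ones. In TPM it had 12.2, 33.7 and 15.5 in right kidneys of coarctation mice, against 7.56, 8.55 and 16.0 in left ones, and 7.31 and 9.98 in sham right kidneys, against 13.4 and 4.34 in sham left kidneys. With the library's own length it had 21.5, 20.7 and 19.4 CPM in right kidneys of coarctation mice, against 26.7, 28.1 and 33.1 in left ones, the reverse order. The log2 change of right minus left in these mice was 0.71 ± 0.49 as deposited and -0.53 ± 0.36 recomputed, and coarctation minus sham in right kidneys was 1.30 ± 0.58 (adjusted p = 0.995 by edgeR) as deposited and 0.18 ± 0.40 recomputed. Neither version was called. Lengths varied over 2-fold between libraries for 7 of the 39 members, against 28.7% of all genes, and hardly for the main structural genes, with 1554 to 1663 bases for Acta2, 5053 to 5749 for Myh11 and 6051 to 6681 for Mylk. The largest shifts of any change by the recomputation were 1.44 for Myocd, 1.38 for Myh10 and 0.54 for Myh9, and no other member with enough recomputed counts to be tested moved by more than 0.33. Actc1 had too few.

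**Figure D4:**
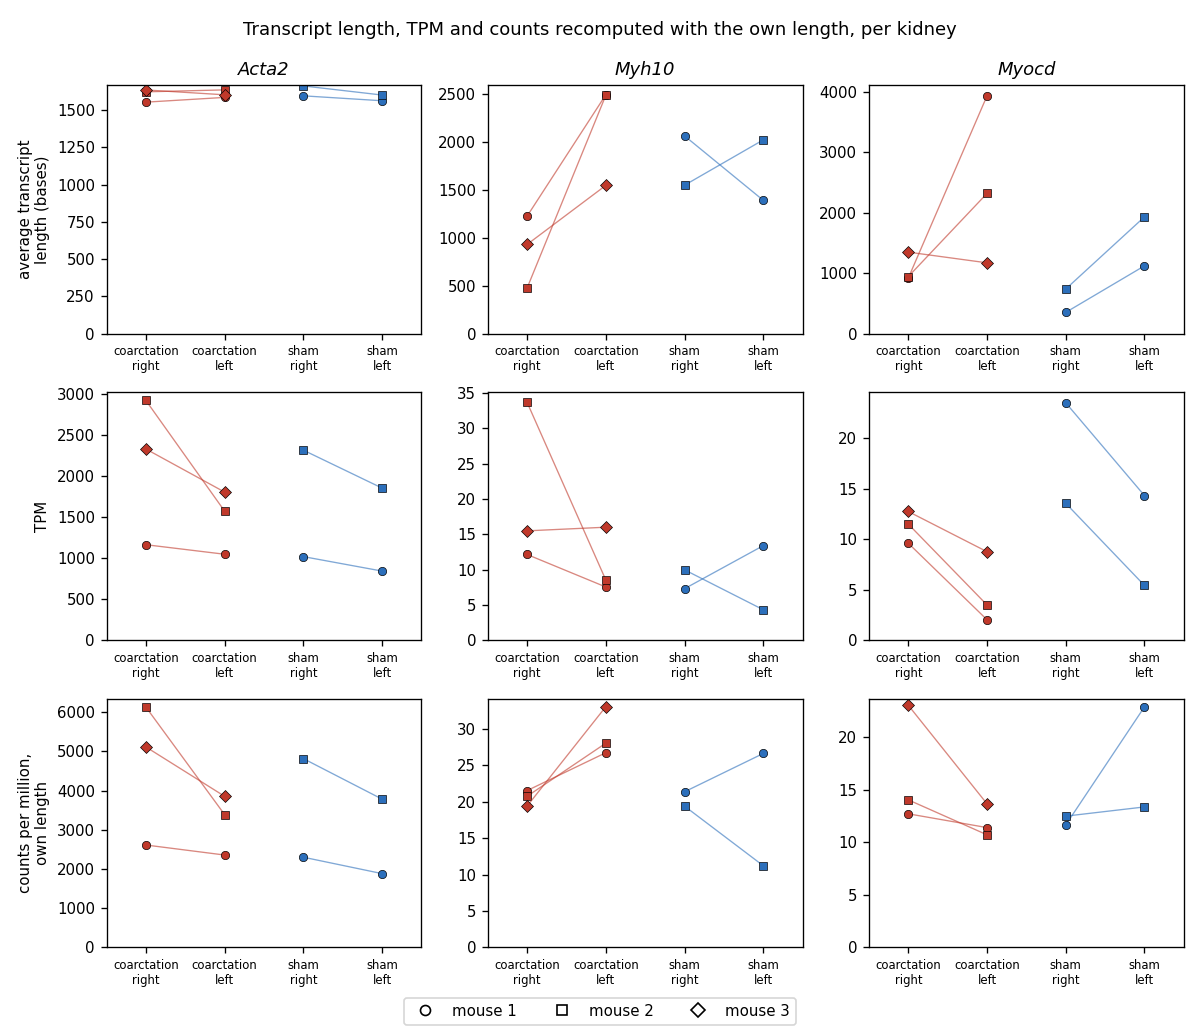
Average transcript length (top), TPM (middle) and CPM recomputed with the library's own length (bottom) for Acta2, Myh10 and Myocd in each kidney, with coarctation mice in red, sham mice in blue, and lines joining the kidneys of a mouse. For Myocd and Myh10 the order of TPM is largely the reverse of that of length, and Acta2 has 1554 to 1663 bases in every library.

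Set against sham, members were mostly higher in coarctation mice, by less than the spread between mice. In left kidneys 33 of 39 were higher and 6 lower, with a median log2 change of 0.39 beside -0.02 for all genes, of which 48.8% were higher. In right kidneys 31 were higher and 8 lower, with a median of 0.27 beside -0.05, and 47.3% of all genes were higher. With library totals only the splits were 29 and 10 in both, with medians of all genes of -0.27 and -0.18. By edgeR 0 members were called in either kidney, and unadjusted p was under 0.05 for 4 members in left kidneys (4.75% of all genes) and for 3 in right kidneys (3.82%). DESeq2 called 0 members in left kidneys and 1, Actg2, in right kidneys. On the log2 CPM scale, groups did not overlap for 6 members that were higher in left kidneys of coarctation mice (9.73% of all genes) and for 7 in right kidneys (7.2%). In the other direction they did not overlap for 0 members in left kidneys (12% of all genes) and for 2, Ppp1r12b and Myocd, in right kidneys (9.18%). For Myocd this direction was the opposite with counts recomputed by the library's own length: the edgeR change in right kidneys was 0.59 ± 0.46, against -0.56 ± 0.59 as deposited. On this scale Pln and Synpo2 were higher without overlap in both kidneys, as 1.19% of all genes were, and no member was lower in both (1.54%). In TPM the right kidneys overlapped for Synpo2, with 6.73 TPM in coarctation mouse 1, against 7.41 and 7.72 TPM in sham mice, and did not for Pln.

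These splits rested on sham mouse 1. Without it, 24 members were higher and 15 lower in left kidneys (median 0.06, beside 0.09 for all genes), and 16 were higher and 23 lower in right kidneys (median -0.11, beside 0.14). Without sham mouse 2 instead, 36 were higher and 3 lower in left kidneys and 35 higher and 4 lower in right kidneys, with medians of 0.89 in both. In these fits the lone sham kidney of a side is assumed to vary like the other groups. Of the members with the smallest p in left kidneys, Synpo2 had a change of 1.14 ± 0.39 (adjusted p = 0.912 by edgeR) and Synm of 1.86 ± 0.69 (adjusted p = 0.912 by edgeR). Without sham mouse 1 these were 1.15 and 2.33, so that the direction of Pln, Synpo2 and Synm did not rest on that mouse. In the same comparison the change was 0.35 ± 0.46 for Acta2, 0.53 ± 0.30 for Myh11, 0.43 ± 0.48 for Tagln, 0.86 ± 0.68 for Cnn1 and 0.43 ± 0.34 for Mylk. In right kidneys these were 0.40 ± 0.46, 0.29 ± 0.30, 0.30 ± 0.47, 0.61 ± 0.67 and 0.20 ± 0.34 in that order of genes, and none passed.

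**Figure D5:**
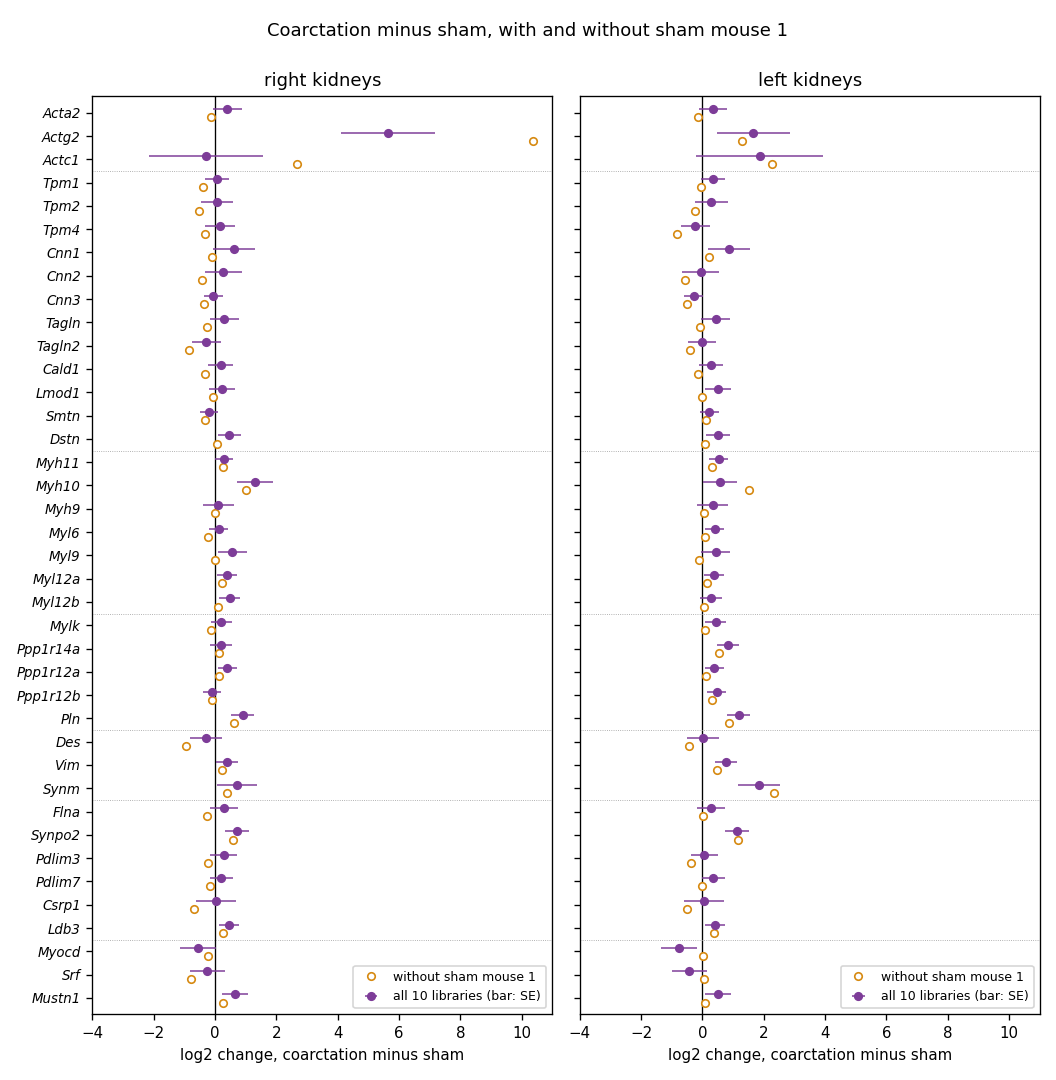
Fitted log2 change, coarctation minus sham, of the 39 genes in right kidneys (left panel) and left kidneys (right panel); filled points with bars are all 10 libraries with the SE, and open points leave out sham mouse 1. Open points lie mostly to the left of filled ones, while Pln and Synpo2 stay above 0 in both kidneys; the far value of Actg2 in right kidneys is set against a library with 0 counts.

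The wider contractile pathway was examined in 5 lists of other genes, none of which held a called gene in any comparison. In coarctation right minus left, the RhoA and ROCK pathway had 6 genes higher and 12 lower. The smallest p in it belonged to Arhgef25, a smooth muscle activator of RhoA (0.98 ± 0.38), and to Arhgef12, another RhoA activator (-0.60 ± 0.28). Of 17 SRF and myocardin cofactors 9 were higher and 8 lower, led by Prdm6, a repressor of smooth muscle genes (-3.45 ± 1.02), and Mkl1, a myocardin relative (1.48 ± 0.62). Prdm6 had the smallest adjusted p of these lists, 0.921 by edgeR. In sham mice its right minus left change was 4.54, in the opposite direction and the highest of its list. Of 16 calcium, calmodulin and cGMP regulators 7 were higher and 9 lower, led by the potassium channel Kcnma1 (-0.81 ± 0.84) and the phosphatase catalytic subunit Ppp1cb (0.25 ± 0.26). Of 20 other smooth muscle genes 19 were tested, with 10 higher and 9 lower, led by the calcium store protein Casq2 (2.93 ± 0.98) and Filip1l (0.46 ± 0.33). Casq2 also went the other way in sham mice, with a change of -2.97. Of 10 cytoplasmic actins and adhesion proteins 5 were higher and 5 lower, led by Actb (-0.31 ± 0.25) and the actinin Actn4 (-0.33 ± 0.34).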

How the data were processed

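The deposited table gives, per the file headers, 3 values per gene and library: TPM, estimated counts and the average transcript length in bases. Per a column of the deposited table, the authors computed the estimated counts from TPM, scaled by length and library size. In the table, the ratio of counts to TPM, relative to the gene's mean ratio, was the same for the genes of a library to within 1.18e-09 of its value over 8430 genes. FastQC and GRCm38 (mm10) were used per the submitters' processing notes. No source used here names the aligner, the quantifier, the annotation or the use of strand. Depth was 20029817 to 32006229 estimated counts per library. Errors come from the spread between libraries.

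Groups came from the sample labels. Rounded estimated counts were tested in R 4.3.3 with edgeR 4.0.16 (filterByExpr, TMM, quasi-likelihood, 1 model of the 4 groups, all 10 libraries, 6 residual degrees of freedom), with Benjamini-Hochberg adjustment over 18825 genes and a threshold of 0.05. This model treats the 10 kidneys of 5 mice as independent. Alternatives used DESeq2 1.42.0 and limma 3.58.1, among others. The code was tested on simulated data. Log2 CPM used a prior count of 2. Values are log2 change ± SE unless stated. Kidneys with the same mouse number and operation come from 1 animal, so they pair within an operation and not between operations. Deviations of paired kidneys correlated at 0.127, 0.0496 and 0.0307 in coarctation mice and 0.398 in sham mice. The highest value for kidneys of different coarctation mice was 0.0351. Over the members alone, the paired values were 0.333, -0.144 and -0.141 in coarctation mice. With 2 sham mice the deviations mirror each other, so both mice have the same value. Mouse as a block was also fitted because the labels pair the kidneys, and these correlations do not settle its need.

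The members and all lists were chosen with earlier results of these data known. Values per library were given for Acta2, Myh11, Tagln, Cnn1, Myl9, Mylk, Des, Vim, Lmod1, Myocd and Srf, for the 3 members with the smallest p in each comparison, and changes for the 2 genes with the smallest p of each pathway list in coarctation right minus left. Any other gene with values was chosen after its values were seen. Genes were matched by symbol, and positions are those of GENCODE vM21.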

Additional observations from a re-analysis of the deposited data

How the results depend on the processing

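No member changed its call under any alternative except Actg2 in coarctation minus sham right kidneys, called by DESeq2 (1 member) and without the filter on low counts (1 member). Numbers of genes called among all tested did change. DESeq2 called 76 in coarctation right minus left, 28 in sham right minus left, 34 for the difference, 39 in left and 55 in right kidneys of coarctation minus sham. Without the filter on low counts these were 112, 19, 63, 67 and 70. Limma on log2(TPM + 1) called 2 in sham right minus left and 3 in left kidneys. The replicate block of the paired kidneys gave 5, and mouse as a random effect 6, in coarctation right minus left. Leaving out single kidneys or mice gave 0 to 4 called there, 0 to 1 for the difference and 0 to 3 in right kidneys, and the calls came without coarctation mouse 3 or its right kidney.

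The members' median change was unstable. For the difference it was 0.049 with library totals only, 0.055 on log2(TPM + 1) and 0.017 with each library's own transcript length, against -0.13 reported, and the last setting gave 0.14 in sham right minus left. Leaving out kidneys or mice gave -0.12 to 0.30 in coarctation right minus left, -0.49 to 0.55 in sham right minus left, -0.69 to 0.56 for the difference, 0.063 to 0.89 in left and -0.11 to 0.90 in right kidneys of coarctation minus sham. The highest in the first was without the left kidney of coarctation mouse 3. The extremes of the others came without a kidney, or both, of sham mouse 1 or 2. In the right minus left comparisons and their difference, leaving out 1 kidney breaks a pair and mixes side with mouse. With whole mice left out, the medians were -0.014 to 0.14 in coarctation and 0.052 to 0.11 in sham right minus left. For the difference they were then -0.18 to 0.10. Of the single-gene values, 4415 kept their direction and side of the threshold, 513 uncalled ones changed sign or moved, and 2 were newly called, both Actg2. The cause was not tested. The number of sham mice (2) limits every comparison that uses them. Of the genes low in TPM, Actg2 and Actc1 rest on few estimated counts, at most 243 and 24.1 in a library. Synm and Srf had at least 118 and 164 in every library.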
